A study of Gossypium hirsutum with 42 samples.

Results

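The comparison was between roots of 2 inbred lines of upland cotton (Gossypium hirsutum, an allotetraploid with an A and a D subgenome): DT-8, a paternal parent, and SJ48, the maternal parent that the study crossed with it. The 6 libraries were chosen by their labels, 3 of DT-8 root and 3 of SJ48 root, out of 21 root libraries and 42 libraries in the whole series. The other genotypes were the inbreds Z98-15 and 851-2 and the hybrids of SJ48 with each of the 3 paternal lines, and root and leaf came from the same plant. Seedlings of all 7 genotypes grew in standard hydroponic solution in the laboratory and were harvested at the seedling stage, with the true leaves fully expanded. No treatment was applied, each inbred was represented by 3 biological replicates, and the time of day of harvest was not stated. The comparison asks how the roots of the parents of the SJ48-DT-8 hybrid differed.

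A seedling root takes up water through aquaporins, takes up mineral ions through transporters of the epidermis and cortex, and guards its surface with lignin, suberin and secreted enzymes. Iron is reduced at the root surface and imported by metal transporters, zinc enters through transporters of the ZIP family, and phosphate shortage switches on acid phosphatases and proteins with an SPX domain. Cotton roots also make terpenoid aldehydes such as gossypol, which start from farnesyl diphosphate of the mevalonate pathway.

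Expression was read as FPKM, fragments per kilobase of transcript scaled to the mapped fragments of the library, and every difference below is DT-8 minus SJ48 on the log2(FPKM + 1) scale, which understates the change of genes with low values. A gene was tested when it reached an FPKM of 1 in at least 3 of the 21 root libraries, and it was called when the limma p, adjusted over all 59282 tested genes, was under 0.05 and the log2 difference was beyond 1 in either direction. The summed FPKM of the 6 libraries lay between 391455.3 and 402356.6, and 45609 to 47150 genes reached an FPKM of 1. The files give no read counts, so the depth behind each value is unknown.

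Photosynthesis genes of leaf cells were low in both roots. The 218 genes of that list summed to 412.7 to 861.6 FPKM in DT-8 roots and 609.7 to 820.0 FPKM in SJ48 roots, against 43610 to 49330 FPKM in DT-8 leaves and 42680 to 44340 FPKM in SJ48 leaves, and none of its 83 tested members was called between the roots by limma (1 higher at an unadjusted p under 0.05, and 5 higher at an adjusted p when DT-8 replicate 2 was left out). The 187 genes of root hairs, endodermis and uptake summed to 520.8 to 582.5 FPKM in DT-8 roots and 470.6 to 542.5 FPKM in SJ48 roots, and to 273.2 to 286.7 FPKM in DT-8 leaves and 306.7 to 308.7 FPKM in SJ48 leaves. In whole roots, fewer cells of a type and less RNA per cell cannot be told apart.

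One library stood apart from its group. Among the 737 genes called lower in DT-8, SJ48 replicate 1 lay nearer to the DT-8 mean than to the mean of SJ48 replicates 2 and 3 at 149 genes, whereas this held at 4 genes for SJ48 replicate 2 and at 6 genes for SJ48 replicate 3. For the DT-8 libraries, the corresponding number at these 737 genes was 29 for replicate 1, 27 for replicate 2 and 7 for replicate 3. Over all tested genes, the SD of the log2 difference between libraries was 0.539 between SJ48 replicate 1 and either of the other SJ48 replicates, 0.470 between those, 0.515 to 0.526 among DT-8 replicates, and 0.623 to 0.671 between a DT-8 and an SJ48 library. Results that turn on SJ48 replicate 1 are therefore given with and without it.

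Of the 59282 genes tested, 1523 were called between the inbred roots, which is 2.57% of them. DT-8 was higher at 786 genes, or 1.33% of those tested, and lower at 737 genes, or 1.24%. The median size of the log2 difference was 1.35 among the higher genes and 1.34 among the lower genes, and the median difference over all tested genes was 0.05. At an adjusted p under 0.05 without a limit on size, 8480 genes (14.3%) differed. When SJ48 replicate 1 was left out, 825 genes were higher and 997 lower, and 619 of the 737 lower genes were among these. The call was made in all 6 fits that each left out 1 library for 498 higher and 394 lower genes, a set defined after the data were seen. The 3 DT-8 libraries did not overlap the 3 SJ48 libraries at 777 of the higher and 684 of the lower genes, against 33.3% of all tested genes. The calls were made on these same libraries, so a lack of overlap follows largely from the choice and adds no support. The same holds wherever called genes are described below as not overlapping.

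**Figure D1:**
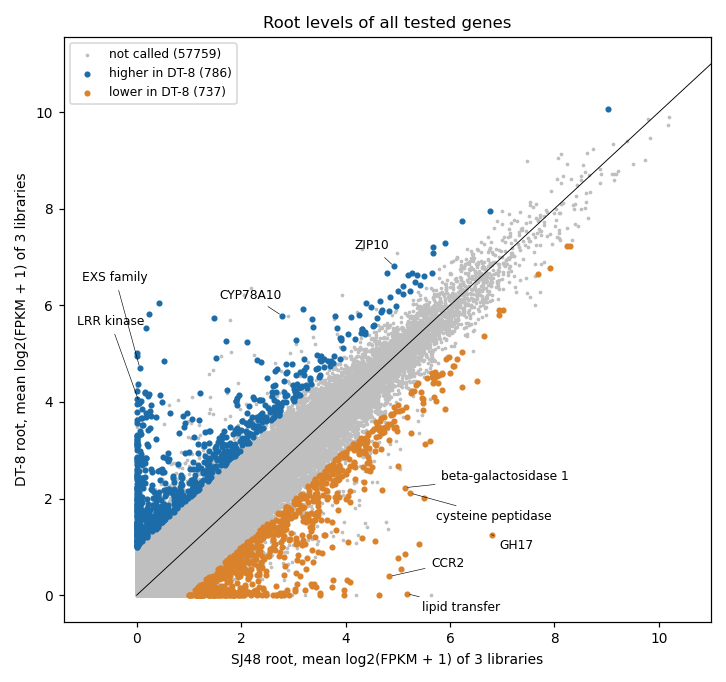
Mean root level of each tested gene on the log2(FPKM + 1) scale, with DT-8 on the vertical and SJ48 on the horizontal axis (3 libraries each), and the line of equal level. The 786 genes called higher in DT-8 (blue) and the 737 called lower (orange) lie on both sides of the 57759 genes not called (grey), and several of them are near 0 in one inbred.

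Genes with a nearly complete difference between the inbreds led both directions. Gh_A09G0220, an EXS family membrane protein of the group that holds the plant phosphate exporters, had 25.5, 23.5 and 25.8 FPKM in DT-8 roots against 0.0454, 0.0466 and 0.0404 FPKM in SJ48 roots, a log2 difference of 4.63 ± 0.096 (SE, limma adjusted p = 6.75e-15). The same gene averaged 22.5 FPKM in DT-8 leaves and 0.0329 FPKM in SJ48 leaves. It was intermediate in the roots of their hybrid, with a mean of 8.56 FPKM, and close to the SJ48 level in Z98-15 (0.0220 FPKM). Thus the difference was present in both organs. That the root libraries did not overlap was a condition for naming it here.

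The leucine-rich repeat transmembrane kinase Gh_D08G0480, a gene of the cell-surface receptor type, had 13.2, 13.2 and 18.9 FPKM in DT-8 roots against 0.0114, 0.0721 and 0.0225 FPKM in SJ48 roots (log2 difference 3.94 ± 0.129, SE, limma adjusted p = 2.65e-12). Its leaf means were 8.17 FPKM in DT-8 and 0.0981 FPKM in SJ48. Another higher gene was Gh_A04G1209, a cytochrome P450 of family 78A, whose best known Arabidopsis relative promotes organ growth. It had 43.2, 53.8 and 68.0 FPKM in DT-8 roots against 7.88, 4.94 and 5.23 FPKM in SJ48 roots, a log2 difference of 2.998 ± 0.218 (SE, limma adjusted p = 8.59e-08). Its leaf means were 0.220 FPKM in DT-8 and 0.0276 FPKM in SJ48, and it was too low to be tested in leaf alone. The root difference exceeded the leaf difference by 2.76 on the log2(FPKM + 1) scale (limma adjusted p = 2.53e-05). That scale shrinks differences between values under 1 FPKM. DT-8 was the higher inbred in both organs, and a different ratio in root and leaf is not shown. The hybrid mean of 10.97 FPKM was nearer to SJ48.

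Succinate dehydrogenase 2-2 (Gh_A07G2072), an iron-sulphur subunit of mitochondrial complex II, reached 62.2, 57.6 and 48.1 FPKM in DT-8 roots against 0.0687, 0.244 and 0.251 FPKM in SJ48 roots. Its log2 difference was 5.58 ± 0.940 (SE, limma adjusted p = 0.000868). The means of 49.9 FPKM in the hybrid, 35.2 FPKM in Z98-15 and 70.4 FPKM in 851-2 placed SJ48 alone at the low end of these 5 root means. The Z98-15 libraries varied widely, with an SD of 30.7 FPKM. In SJ48 leaves the gene averaged 7.35 FPKM (SD 11.1), against 16.9 FPKM in DT-8 leaves, and the leaf difference was not called (limma adjusted p = 0.339). The Dof-type zinc finger factor Gh_A07G1251 was less uniform, with 39.6, 37.6 and 34.3 FPKM in DT-8 roots against 0.140, 29.5 and 0.0112 FPKM in SJ48 roots. SJ48 replicate 2 thus lay close to DT-8, and the call (limma adjusted p = 0.0315) was lost when any library other than SJ48 replicate 2 was left out, with an adjusted p of up to 0.139.

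Among the 12 largest described rises, 3 more had wide standard errors, of 0.92 to 0.95 on the log2 scale. NPL4-like protein 1 (Gh_D12G0068), the alpha/beta-hydrolase Gh_Sca063132G01 and the NADH-ubiquinone oxidoreductase-related gene Gh_A08G0379 did not overlap between the inbreds, with 6.50 FPKM or more in every DT-8 library and 4.25 FPKM or less in every SJ48 library. Each of these genes lost its call when any 1 of the 6 libraries was left out, with limma adjusted p values of up to 0.0724, 0.0934 and 0.109 in that order.

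On the lower side, Gh_A05G0189, a glycosyl hydrolase of family 17 (the family of plant beta-1,3-glucanases), had 1.54, 1.05 and 1.598 FPKM in DT-8 roots against 132, 100 and 101 FPKM in SJ48 roots, a log2 difference of -5.54 ± 0.701 (SE, limma adjusted p = 5.96e-05). The other inbreds split, with means of 3.93 FPKM in Z98-15 and 96.8 FPKM in 851-2, and the hybrid averaged 42.3 FPKM. In leaves the gene was near 0, at 0.153 FPKM in DT-8 and 0.429 FPKM in SJ48. A lipid-transfer protein, Gh_D11G3313, of the secreted class that binds lipids in the cell wall, had 0.0674, 0 and 0 FPKM in DT-8 roots against 40.6, 35.7 and 29.5 FPKM in SJ48 roots (log2 difference -5.14 ± 0.628, SE, limma adjusted p = 4.12e-05). Here both Z98-15 (0.0326 FPKM) and 851-2 (0.121 FPKM) were as low as DT-8.

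The zinc-binding oxidoreductase Gh_A07G2020 (at the locus MSTRG.14756) had 1.21, 0.680 and 0.593 FPKM in DT-8 roots against 40.1, 31.97 and 31.2 FPKM in SJ48 roots, and was low in leaves of both. A papain-type protease, xylem bark cysteine peptidase 3 (Gh_A06G1157), had 3.64, 3.26 and 3.11 FPKM in DT-8 roots against 39.1, 35.7 and 35.03 FPKM in SJ48 roots (log2 difference -3.12 ± 0.210, SE, limma adjusted p = 2.91e-08). DT-8 was the low line for this gene in leaves as well, at 2.71 FPKM against 61.9 FPKM in SJ48, while the hybrid, Z98-15 and 851-2 roots averaged 45.6, 44.1 and 45.0 FPKM. Gh_D01G0381, a dirigent-like protein of the family that guides the coupling of lignin precursors, had 0.503, 0 and 0.0936 FPKM in DT-8 roots against 7.42, 10.3 and 11.4 FPKM in SJ48 roots.

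An SKP1-type subunit of ubiquitin ligases, Gh_A06G0021, had 0.436, 0.452 and 0.458 FPKM in DT-8 roots against 35.1, 30.5 and 32.02 FPKM in SJ48 roots. The groups did not overlap, yet the standard error of the log2 difference was 1.40, and the gene lost its call when any 1 of the 6 libraries was left out (limma adjusted p = 0.0396, and up to 0.0993 with 1 library left out). The O-methyltransferase Gh_D10G2052 had 2.11, 9.72 and 0.973 FPKM in DT-8 roots against 40.9, 49.3 and 43.6 FPKM in SJ48 roots, and its call was lost without DT-8 replicate 3 (limma adjusted p = 0.0712).

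Iron and zinc genes differed in both directions. Of 66 tested genes of iron and zinc uptake and storage, 6 were higher and 8 were lower in DT-8, so that 21.2% were called, against 2.57% of all tested genes, while the median log2 difference of the list was 0.01, and -0.03 after quantile normalization. The higher genes were 3 metal transporters of the NRAMP family, 2 loci of zinc transporter 10 and a ferric reductase. The lower ones were 6 zinc transporters of types 1, 4 and 5 and both called ferritins, the proteins that store iron. Leaving out 1 library gave 2 to 5 higher and 2 to 8 lower members, with 5 higher and 2 lower without DT-8 replicate 3, 2 and 3 without DT-8 replicate 1, 3 and 5 without DT-8 replicate 2, 4 and 4 without SJ48 replicate 1, 3 and 8 without SJ48 replicate 2, and 3 and 7 without SJ48 replicate 3. Only 2 higher and 2 lower members kept their calls in all 6 of these fits.

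The metal ion transporter NRAMP6 was high in DT-8 at 2 loci. Gh_A06G0390 had 3.85, 3.71 and 2.38 FPKM in DT-8 roots against 0.177, 0.387 and 0.341 FPKM in SJ48 roots, a log2 difference of 1.71 ± 0.218 (SE, limma adjusted p = 6.18e-05). Gh_D06G0421 had the higher level, with 76.8, 73.1 and 38.1 FPKM in DT-8 roots against 4.05, 9.997 and 12.5 FPKM in SJ48 roots. The groups did not overlap, but the call of Gh_D06G0421 (limma adjusted p = 0.0265) was lost without DT-8 replicate 1 or 2 or SJ48 replicate 1 or 2, and the adjusted p was 0.102 without SJ48 replicate 1. A further gene of the family, Gh_D05G2255, had 30.1, 31.6 and 24.8 FPKM in DT-8 roots against 6.69, 9.18 and 9.14 FPKM in SJ48 roots (log2 difference 1.68 ± 0.331, SE, limma adjusted p = 0.00282).

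Zinc transporter 10, a ZIP protein, was also high at 2 loci. Gh_D10G0438 had 118, 146 and 80.0 FPKM in DT-8 roots against 28.6, 30.5 and 29.1 FPKM in SJ48 roots, and Gh_A10G0424 had 93.5, 69.6 and 90.0 FPKM in DT-8 roots against 38.5, 37.6 and 25.7 FPKM in SJ48 roots. Ferric reduction oxidase 2 (Gh_D11G0960), whose Arabidopsis counterpart reduces iron at the root surface, had 16.9, 15.5 and 13.1 FPKM in DT-8 roots against 7.63, 5.04 and 5.45 FPKM in SJ48 roots. All 3 genes separated the inbreds without overlap. Their limma adjusted p values were 0.0326, 0.0226 and 0.0216, and each call was lost in several fits with 1 library left out: Gh_D10G0438 in all but the fit without DT-8 replicate 3 (up to 0.0994), Gh_A10G0424 without DT-8 replicate 1 or 3 or SJ48 replicate 3 (up to 0.0908), and Gh_D11G0960 without DT-8 replicate 1 or 2 or SJ48 replicate 2 or 3 (up to 0.0762).

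Members of other lists that are known from Arabidopsis roots short of iron were higher as well. CYP82C4 (Gh_D05G1897;Gh_D05G1896), which in Arabidopsis hydroxylates secreted coumarins, had 37.4, 47.4 and 30.1 FPKM in DT-8 roots against 13.1, 17.6 and 11.99 FPKM in SJ48 roots (log2 difference 1.36 ± 0.271, SE, limma adjusted p = 0.00307). MYB domain protein 72 (Gh_D01G0792), a transcription factor of the Arabidopsis iron response, had 2.32, 1.26 and 0.653 FPKM in DT-8 roots against 0.221, 0.149 and 0.0679 FPKM in SJ48 roots, with a limma adjusted p of 0.0125 that was 0.0691 in the least favourable fit with 1 library left out and with the call lost without DT-8 replicate 1 or SJ48 replicate 3. These 2 genes were set beside the iron list after their values were seen.

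Zinc transporters of types 1, 4 and 5 were lower in DT-8, and SJ48 replicate 1 was the highest library at all 6 called loci of these types. Zinc transporter 1 (Gh_D01G0829) had 9.13, 11.4 and 9.74 FPKM in DT-8 roots against 50.8, 22.4 and 21.9 FPKM in SJ48 roots (log2 difference -1.46 ± 0.410, SE, limma adjusted p = 0.0253). Zinc transporter 4 at Gh_A06G0806 had 7.45, 8.01 and 7.26 FPKM in DT-8 roots against 31.1, 16.2 and 15.2 FPKM in SJ48 roots, and at Gh_D06G0915 it had 8.17, 9.43 and 7.45 FPKM against 31.2, 17.1 and 15.9 FPKM. No DT-8 library reached an SJ48 library at any of these loci. Without SJ48 replicate 1, the adjusted p rose to 0.119, 0.122 and 0.121 for these 3 loci, and only zinc transporter 5 at Gh_A11G1441 kept its call among the 6 (limma adjusted p = 0.0401).

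Zinc transporter 5 at Gh_A11G1441 had 1.64, 1.31 and 1.49 FPKM in DT-8 roots against 9.42, 4.01 and 4.40 FPKM in SJ48 roots, a log2 difference of -1.41 ± 0.321 (SE, limma adjusted p = 0.00758). The other inbreds and the hybrid were nearer to SJ48, at means of 3.76 FPKM in Z98-15, 4.29 FPKM in 851-2 and 9.98 FPKM in the hybrid.

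Both ferritin 1 loci showed the opposite library pattern. Gh_A09G2418 had 2.76, 3.10 and 2.54 FPKM in DT-8 roots against 4.06, 16.1 and 14.9 FPKM in SJ48 roots, and Gh_D09G1582 had 3.18, 2.96 and 2.55 FPKM against 4.0, 23.6 and 22.1 FPKM. SJ48 replicate 1 was thus close to DT-8, and replicates 2 and 3 were far above. Gh_A09G2418 had a log2 difference of -1.55 ± 0.334 (SE, limma adjusted p = 0.0051), and 8.65e-06 without SJ48 replicate 1. Gh_D09G1582 was called with an adjusted p of 0.0153, but not without DT-8 replicate 3 or SJ48 replicate 2 or 3, where it reached 0.0796.

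**Figure D2:**
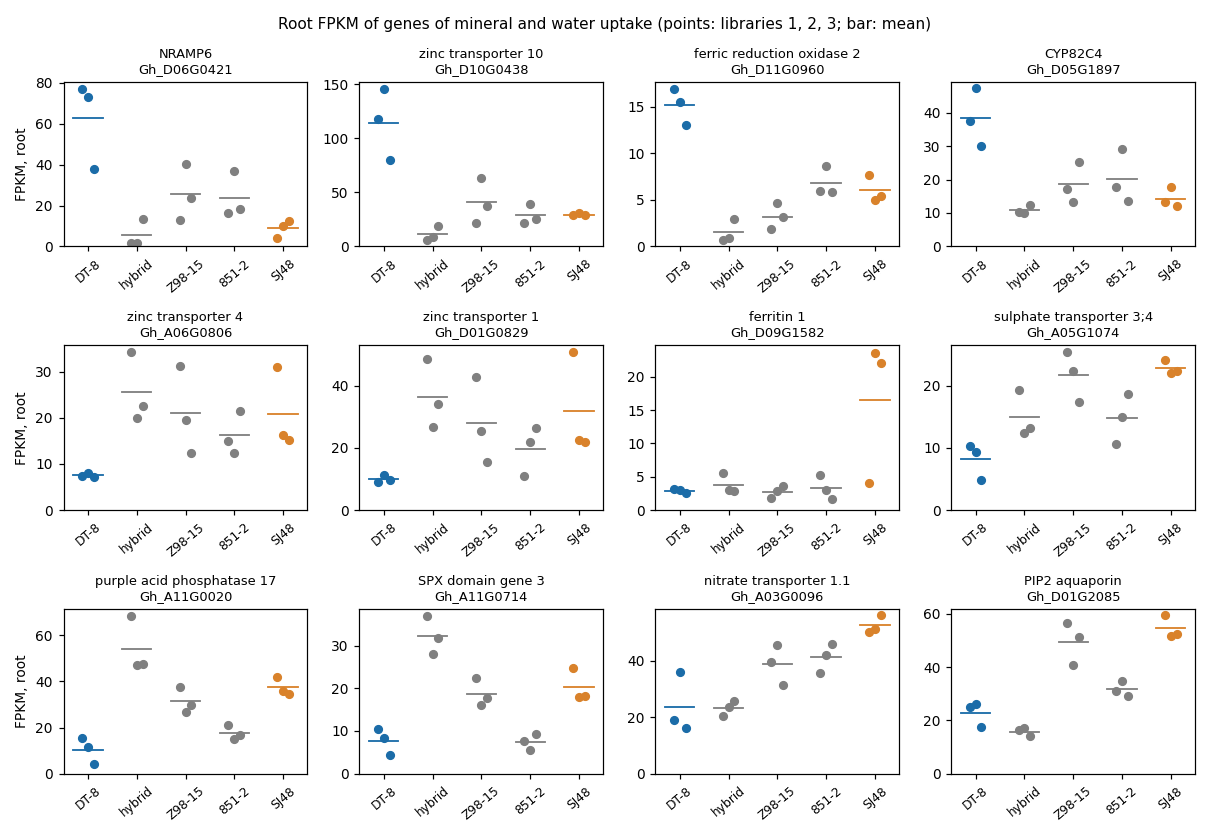
Root FPKM of 12 genes of mineral nutrition and water transport in DT-8, the SJ48-DT-8 hybrid, Z98-15, 851-2 and SJ48 (points are libraries 1 to 3 from left to right, bars their mean, vertical axes from 0). NRAMP6 at Gh_D06G0421 lies at 38.1 FPKM or more in DT-8 and at 12.5 FPKM or less in SJ48, zinc transporters 1 and 4 are highest in SJ48 replicate 1 among the SJ48 libraries, and ferritin 1 stands at 23.6 and 22.1 FPKM in SJ48 replicates 2 and 3.

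The called genes of the phosphate response were all lower in DT-8. Of 63 tested members of the phosphate list, 0 were higher and 4 were lower (6.35%). With 1 library left out 2 to 5 were lower, 2 of them without DT-8 replicate 3, and 2 calls held in all 6 fits. Purple acid phosphatase 17 (Gh_A11G0020), which releases phosphate from organic compounds, had 15.5, 11.4 and 4.24 FPKM in DT-8 roots against 42.1, 35.8 and 34.6 FPKM in SJ48 roots (log2 difference -1.90 ± 0.351, SE, limma adjusted p = 0.00172). Another locus of it, Gh_D11G0018, had 0.923, 0.901 and 0.472 FPKM in DT-8 roots against 5.90, 3.34 and 5.48 FPKM in SJ48 roots. SPX domain gene 3 (Gh_A11G0714), a phosphate sensor, had 10.4, 8.29 and 4.46 FPKM in DT-8 roots against 24.7, 17.9 and 18.2 FPKM in SJ48 roots. DT-8 replicate 3 was the lowest library at each of these loci, and without it the adjusted p of Gh_A11G0714 moved to 0.0505, against 0.00773 with it.

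SPX3 at Gh_D11G0832 was the fourth locus, with 7.57, 5.16 and 3.86 FPKM in DT-8 roots against 15.7, 11.1 and 10.1 FPKM in SJ48 roots (limma adjusted p = 0.0259). Its call was lost without DT-8 replicate 2 or 3 or SJ48 replicate 1 or 2 (up to 0.122). At all 4 loci the hybrid mean lay above both inbreds, for example 54.3 FPKM for Gh_A11G0020 and 32.2 FPKM for Gh_A11G0714.

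Sulphate and nitrate transport each held 1 lower gene, of 34 tested (2.94%) and of 58 tested (1.72%), against 2.57% of all tested genes. The lower counts with 1 library left out were 1 to 2 for sulphate and 0 to 3 for nitrate and ammonium. The nitrate and ammonium count was 3 without SJ48 replicate 1 and 0 without DT-8 replicate 1 or 3 or SJ48 replicate 3. Sulphate transporter 3;4 (Gh_A05G1074) had 10.4, 9.27 and 4.88 FPKM in DT-8 roots against 24.1, 22.0 and 22.3 FPKM in SJ48 roots, a log2 difference of -1.43 ± 0.237 (SE, limma adjusted p = 0.000746). Nitrate transporter 1.1 (Gh_A03G0096), a nitrate carrier and sensor in Arabidopsis, had 19.0, 36.1 and 16.0 FPKM in DT-8 roots against 50.1, 51.5 and 56.3 FPKM in SJ48 roots. Its limma adjusted p of 0.0228 rose to as much as 0.113, and the call was lost without DT-8 replicate 1 or 3 or SJ48 replicate 2 or 3. None of 67 potassium channels and carriers was called by limma, and 0 passed the size limit at an unadjusted p under 0.05.

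Aquaporins, the channels for water and small solutes, differed mostly towards lower levels in DT-8. Of 73 tested members 3 were higher and 7 were lower (13.7%), and the median log2 difference of the list was -0.38, against 0.05 over all tested genes. Their FPKM summed to 7776 to 8300 in the DT-8 libraries and to 10610 to 11150 in the SJ48 libraries, with no overlap. Without SJ48 replicate 1, 3 were higher and 5 lower, with a median of -0.31. Over the 6 fits with 1 library left out 2 to 3 were higher and 4 to 10 lower, with 4 lower without DT-8 replicate 3, and 2 higher and 4 lower calls held in all of them.

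Plasma membrane intrinsic protein 2 (PIP2) accounted for 4 of the 7 lower loci. Gh_D04G1090 had 155, 170 and 128 FPKM in DT-8 roots against 331, 299 and 281 FPKM in SJ48 roots (log2 difference -1.01 ± 0.138, SE, limma adjusted p = 0.000132), at the edge of the size limit, so that its call was lost without DT-8 replicate 3 or SJ48 replicate 1. The locus named Gh_A01G1843;Gh_A01G1844 had 45.0, 41.5 and 35.3 FPKM in DT-8 roots against 105, 94.6 and 100 FPKM in SJ48 roots (-1.29 ± 0.162, limma adjusted p = 5.82e-05). Gh_D01G2085 and its neighbour Gh_D01G2086 were of a similar size, with log2 differences of -1.24 and -1.25. Fragments of such near-identical genes could be split among them, and Gh_D01G2085 and Gh_D01G2086 are therefore uncertain as separate genes. The same holds for the A and D subgenome copies of any gene named here. The hybrid mean lay below those of DT-8 and SJ48 at all 4 PIP2 loci, at 138 FPKM for Gh_D04G1090 and at 21.6, 15.7 and 11.4 FPKM for the others.

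Other aquaporins differed in direction between copies. PIP1;4 was lower at Gh_D13G0175, with 30.3, 35.9 and 21.7 FPKM in DT-8 roots against 75.8, 67.6 and 66.0 FPKM in SJ48 roots. It was higher at Gh_D06G2371, with 25.4, 22.7 and 36.9 FPKM in DT-8 roots against 11.5, 10.2 and 10.02 FPKM in SJ48 roots, and at Gh_A13G0156, with 10.2, 7.80 and 3.63 FPKM against 2.51, 2.22 and 1.78 FPKM. All 3 PIP1;4 loci separated the inbreds without overlap and kept their calls in every fit with 1 library left out. Among vacuolar channels, tonoplast intrinsic protein 1;3 was higher at Gh_D13G2394 (31.5, 31.0 and 22.2 FPKM in DT-8 roots against 17.7, 9.27 and 10.9 FPKM in SJ48 roots), with a log2 difference of 1.13 ± 0.198 (SE) that fell below the limit of 1 without SJ48 replicate 2.

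The called genes of terpenoid synthesis were all lower in DT-8 and included both early and late steps. Of 51 tested genes of the list, 0 were higher and 9 were lower (17.6%), with a list median of -0.36 against 0.05 over all tested genes, and 5 of the 9 calls held in all 6 fits with 1 library left out, in which 5 (without DT-8 replicate 3) to 11 members were lower. Hydroxymethylglutaryl-CoA reductase 1 (Gh_A12G0103), which commits carbon to the mevalonate pathway, had 1.37, 1.81 and 1.12 FPKM in DT-8 roots against 6.57, 5.12 and 5.97 FPKM in SJ48 roots (log2 difference -1.504 ± 0.150, SE, limma adjusted p = 4.22e-06). Farnesyl diphosphate synthase 1 (Gh_D05G1687), which makes the sesquiterpene precursor, had 34.3, 33.3 and 22.8 FPKM in DT-8 roots against 65.3, 59.8 and 61.0 FPKM in SJ48 roots, a log2 difference of -1.04 ± 0.122 (SE) that no longer passed the size limit without DT-8 replicate 3.

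Terpene synthase 21, which forms sesquiterpenes in Arabidopsis, was lower at 3 loci. Gh_D13G1503, the most abundant, had 20.6, 20.7 and 13.9 FPKM in DT-8 roots against 55.8, 55.8 and 58.0 FPKM in SJ48 roots (log2 difference -1.59 ± 0.231, SE, limma adjusted p = 0.000229). Gh_A13G1207 had 4.004, 2.70 and 1.57 FPKM in DT-8 roots against 7.22, 7.81 and 8.07 FPKM in SJ48 roots. Here SJ48 was the line apart, since Z98-15 and 851-2 averaged 13.8 and 12.4 FPKM at Gh_D13G1503 and 1.79 and 1.34 FPKM at Gh_A13G1207. At the third locus, Gh_D01G1963, the call was lost without DT-8 replicate 2 or 3 or SJ48 replicate 2 or 3, with an adjusted p of up to 0.132.

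The flavonoid list held 2 lower genes of 30 tested (6.67%), and its median log2 difference was -0.52. Both calls held in all 6 fits with 1 library left out, in which 2 to 4 members were lower, 4 of them without DT-8 replicate 1. Dihydroflavonol 4-reductase (Gh_D06G0041), a step towards anthocyanins and tannins, had 12.95, 14.4 and 11.8 FPKM in DT-8 roots against 34.4, 27.4 and 30.0 FPKM in SJ48 roots. Chalcone synthase (Gh_D10G1431;Gh_D10G1429), the entry enzyme of the pathway, had 13.9, 11.9 and 8.56 FPKM in DT-8 roots against 32.1, 28.5 and 27.9 FPKM in SJ48 roots. Both were also called lower in DT-8 leaves, with log2 differences of -1.57 and -1.34, and for both the hybrid mean lay above each parent (40.4 and 52.4 FPKM).

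**Figure D3:**
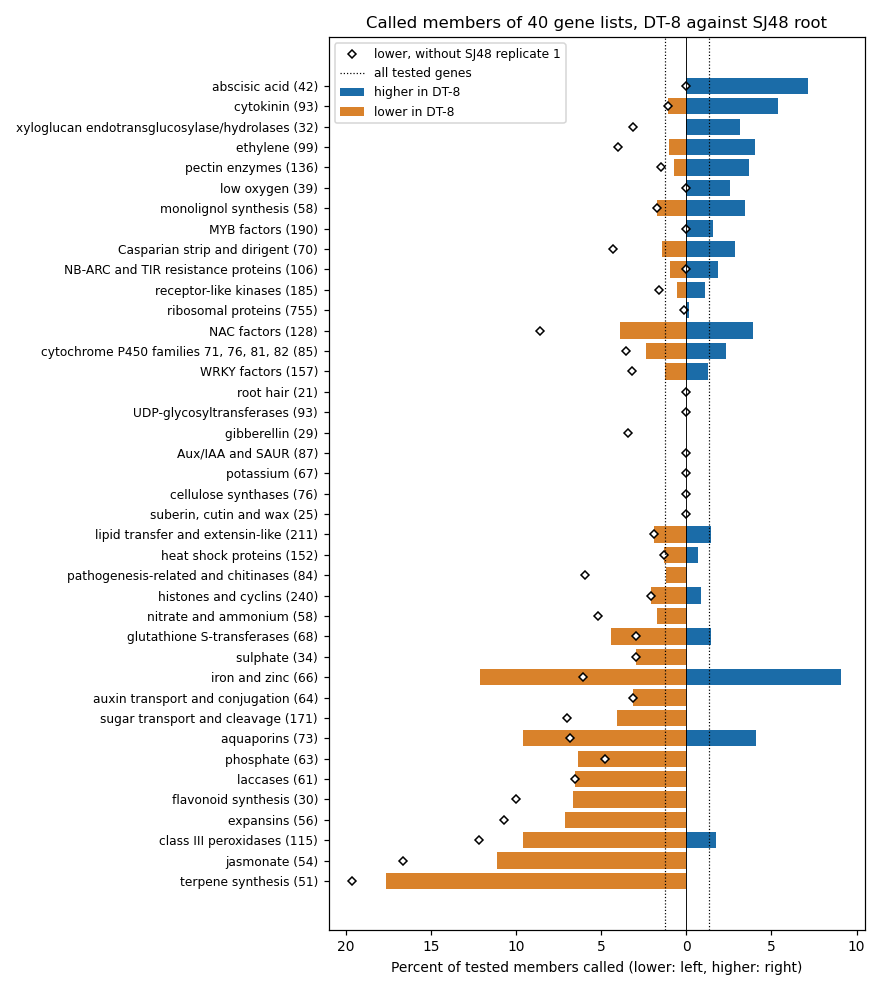
Share of the tested members of 40 gene lists (number tested in brackets) called higher (blue, right) or lower (orange, left) in DT-8 root, beside the shares over all tested genes (dotted lines at 1.33% and 1.24%). Open diamonds give the share called lower without SJ48 replicate 1, which was larger, among others, for peroxidases, jasmonate, sugar transport and NAC factors and smaller for iron and zinc, aquaporins and phosphate.

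Lignin-coupling and wall enzymes were unevenly affected. Of 115 tested genes described as peroxidases, the secreted heme enzymes that couple lignin precursors and use hydrogen peroxide, 2 were higher and 11 lower (11.3%). With 1 library left out 2 were higher in each fit, while 14 were lower without SJ48 replicate 1 and 6 without DT-8 replicate 3 or SJ48 replicate 2, and 7 without SJ48 replicate 3. In all 6 fits 2 higher and 5 lower calls held. The sum of the list nevertheless was 2057 to 2169 FPKM in DT-8 and 1776 to 1876 FPKM in SJ48, and the called members with the higher levels in DT-8 included Gh_A07G0012. This gene had 28.1, 27.4 and 29.2 FPKM in DT-8 roots against 12.5, 8.64 and 10.2 FPKM in SJ48 roots (log2 difference 1.37 ± 0.150, SE, limma adjusted p = 1.36e-05), and Gh_D07G0019 had 21.04, 19.9 and 24.2 FPKM against 9.24, 9.16 and 8.52 FPKM.

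Among the lower peroxidases, Gh_D08G0891 separated the inbreds in every library, with 2.32, 1.40 and 1.06 FPKM in DT-8 roots against 12.5, 13.4 and 13.6 FPKM in SJ48 roots (log2 difference -2.48 ± 0.348, SE, limma adjusted p = 0.000164). Gh_D09G1420 had 22.5, 21.3 and 16.4 FPKM in DT-8 roots against 35.02, 59.8 and 59.5 FPKM in SJ48 roots. At Gh_A08G1806, with 0.546, 0.266 and 0.221 FPKM in DT-8 roots against 1.90, 10.2 and 9.90 FPKM in SJ48 roots, SJ48 replicate 1 was nearer to DT-8. That call (limma adjusted p = 0.016) became 0.00456 without SJ48 replicate 1 and was lost without DT-8 replicate 3 or SJ48 replicate 2 or 3.

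All 4 called laccases of 61 tested (6.56%) were lower, and the list median was -0.42. Between 1 and 7 were lower with 1 library left out, with 1 without DT-8 replicate 3 and 7 without SJ48 replicate 3, and 1 call held in all 6 fits. Laccase 17, which polymerizes lignin in Arabidopsis, had 1.05, 1.17 and 0.688 FPKM in DT-8 roots against 4.997, 2.97 and 3.004 FPKM in SJ48 roots at Gh_A09G1445 (log2 difference -1.22 ± 0.175, SE, limma adjusted p = 0.000207). At Gh_D09G1454 it had 5.20, 4.87 and 3.95 FPKM against 16.1, 9.14 and 8.98 FPKM, with SJ48 replicate 1 the highest, and the log2 difference passed below the limit without that library or without DT-8 replicate 3. Expansins, which loosen walls, had a list median of -0.48 and 4 lower members of 56 (7.14%), none of which was called in all 6 fits with 1 library left out. The lower count was 9 without DT-8 replicate 2, 6 without SJ48 replicate 1, 2 without SJ48 replicate 2 and 1 without DT-8 replicate 3. Expansin-like B1 (Gh_A08G1477) had 0.755, 0.548 and 0.113 FPKM in DT-8 roots against 0.794, 21.1 and 20.7 FPKM in SJ48 roots, so SJ48 replicate 1 was at the DT-8 level. Its adjusted p was 0.0218, 0.000158 without SJ48 replicate 1, and 0.106 in the least favourable fit, the call being lost without DT-8 replicate 3 or SJ48 replicate 2 or 3.

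Single lignin and pectin genes differed strongly between copies. O-methyltransferase 1, which methylates lignin precursors, was higher at Gh_D12G2369, with 14.4, 3.69 and 14.2 FPKM in DT-8 roots against 1.03, 0.489 and 0.778 FPKM in SJ48 roots (log2 difference 2.56 ± 0.355, SE, limma adjusted p = 0.000147). It was lower at Gh_Sca010598G01, with 5.94, 5.67 and 4.45 FPKM in DT-8 roots against 13.5, 14.5 and 12.95 FPKM in SJ48 roots. Of 136 pectin enzymes and inhibitors 5 were higher and 1 was lower (4.41%), with 4 to 6 higher and 1 to 3 lower when 1 library was left out (3 lower without SJ48 replicate 2), and 2 higher and 1 lower in all 6 fits. Gh_A03G0503, described as an inhibitor of invertase and pectin methylesterase, had 15.9, 15.0 and 19.1 FPKM in DT-8 roots against 3.497, 2.70 and 2.60 FPKM in SJ48 roots, a log2 difference of 2.17 ± 0.539 (SE) whose adjusted p was 0.0124, and 0.05 without DT-8 replicate 3, where the call was lost. No member was called among 76 cellulose synthases or 25 genes of suberin, cutin and wax by limma, and 0 passed the size limit in either list at an unadjusted p under 0.05, although 1 gene of the suberin, cutin and wax list was called higher without DT-8 replicate 1.

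A pair of proteins of the UPF0497 family, to which the membrane proteins of the endodermal Casparian strip belong, were higher. Gh_A08G0064 had 4.05, 4.39 and 3.62 FPKM in DT-8 roots against 0.274, 0.476 and 0.630 FPKM in SJ48 roots. Gh_A09G0009 had 9.02, 10.8 and 13.3 FPKM in DT-8 roots against 5.78, 3.51 and 1.89 FPKM in SJ48 roots. Neither overlapped, and both calls held with any 1 library left out.

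In the sugar, jasmonate and NAC lists the counts moved when SJ48 replicate 1 was left out. Of 171 tested genes of sugar transport and cleavage 0 were higher and 7 lower (4.09%), and without SJ48 replicate 1 the numbers were 1 and 12. Without any other library 0 were higher and 6 to 8 lower, and 6 calls held in all 6 fits. Sugar transporter 1, a hexose importer, had 5.23, 4.66 and 5.03 FPKM in DT-8 roots against 7.33, 36.2 and 34.2 FPKM in SJ48 roots at Gh_A05G1416 (log2 difference -1.89 ± 0.394, SE, limma adjusted p = 0.00404, and 1.21e-06 without SJ48 replicate 1). At Gh_D05G1581 it had 5.36, 5.50 and 4.27 FPKM against 7.67, 33.0 and 32.3 FPKM. In both cases DT-8 and SJ48 replicate 1 were close together and SJ48 replicates 2 and 3 were far above.

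Glycosyl hydrolases of family 32, the invertase family, showed a steadier difference. Gh_A02G1119 had 6.87, 5.92 and 4.48 FPKM in DT-8 roots against 16.6, 25.3 and 20.1 FPKM in SJ48 roots (log2 difference -1.68 ± 0.222, SE, limma adjusted p = 9.43e-05). Gh_D03G0541 had 15.0, 8.71 and 7.82 FPKM in DT-8 roots against 23.0, 35.5 and 33.8 FPKM in SJ48 roots. All 3 lower members of this family kept their calls in all 6 fits with 1 library left out.

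Of 54 jasmonate genes 0 were higher and 6 lower (11.1%). The lower count was 9 without SJ48 replicate 1, 2 without DT-8 replicate 3, 3 without SJ48 replicate 2 and 1 without SJ48 replicate 3, and only 1 call held in all 6 fits. That gene, lipoxygenase 1 at Gh_A08G1864, oxidizes the fatty acids from which such signals derive and had 3.70, 4.52 and 4.29 FPKM in DT-8 roots against 8.22, 15.3 and 15.4 FPKM in SJ48 roots (log2 difference -1.39 ± 0.246, SE, limma adjusted p = 0.0013). Its relative Gh_D13G1129 had 7.88, 6.70 and 7.18 FPKM in DT-8 roots against 7.16, 32.7 and 37.6 FPKM in SJ48 roots, with SJ48 replicate 1 inside the DT-8 range. Allene oxide synthase (Gh_A06G0112), the first committed enzyme of jasmonate synthesis, had 0.355, 0.0498 and 0.0424 FPKM in DT-8 roots against 0.342, 3.80 and 3.39 FPKM in SJ48 roots. For these last genes the adjusted p was 0.037 and 0.0217, fell to 0.00019 and 0.000369 without SJ48 replicate 1, and reached 0.168 and 0.107 in the least favourable fit, Gh_D13G1129 being lost in all fits but the one without SJ48 replicate 1 and Gh_A06G0112 without DT-8 replicate 2 or 3 or SJ48 replicate 2 or 3.

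Jasmonate-ZIM-domain protein 1, a repressor that jasmonate itself induces, had 10.02, 10.4 and 9.07 FPKM in DT-8 roots against 16.9, 23.8 and 27.2 FPKM in SJ48 roots at Gh_A05G0260 (log2 difference -1.102 ± 0.156, SE, limma adjusted p = 0.000177). Without SJ48 replicate 3 this difference no longer passed the size limit. The repressor was also called lower at Gh_D05G0352, a call that was lost without DT-8 replicate 3 or SJ48 replicate 2 or 3.

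NAC transcription factors were divided, with 5 higher and 5 lower of 128 tested (7.81%). There were 4 higher and 11 lower without SJ48 replicate 1, 6 and 2 without DT-8 replicate 3, 4 and 2 without DT-8 replicate 2 or SJ48 replicate 2, and 3 and 1 without SJ48 replicate 3, and 1 higher and 1 lower call held in all 6 fits. NAC47 (Gh_A13G1439) had 2.20, 0.681 and 0.656 FPKM in DT-8 roots against 1.33, 16.0 and 19.4 FPKM in SJ48 roots. SJ48 replicate 1 lay within the DT-8 range, and the adjusted p of 0.022 was 7.17e-05 without that library and 0.11 in the least favourable fit, the call being lost without DT-8 replicate 2 or 3 or SJ48 replicate 2 or 3. NAC100 was higher at Gh_D12G1761, with 12.5, 13.2 and 11.3 FPKM in DT-8 roots against 8.11, 4.002 and 1.95 FPKM in SJ48 roots, and at Gh_A12G1620, with 6.81, 5.83 and 6.63 FPKM against 2.85, 2.56 and 1.13 FPKM. Both NAC100 loci failed the size limit without SJ48 replicate 3.

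The same library pattern appeared outside these lists. Beta-galactosidase 1 (Gh_D05G1283), a wall enzyme, had 5.02, 2.87 and 3.39 FPKM in DT-8 roots against 10.1, 61.9 and 60.7 FPKM in SJ48 roots (log2 difference -2.91 ± 0.449, SE, limma adjusted p = 0.000408). The auxin efflux carrier Gh_A02G1716 had 1.15, 0.938 and 1.32 FPKM in DT-8 roots against 2.38, 12.9 and 12.2 FPKM in SJ48 roots. Both held in all 6 fits with 1 library left out. Whether handling, growth or sampling of SJ48 replicate 1 has a part in these values was not tested.

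**Figure D4:**
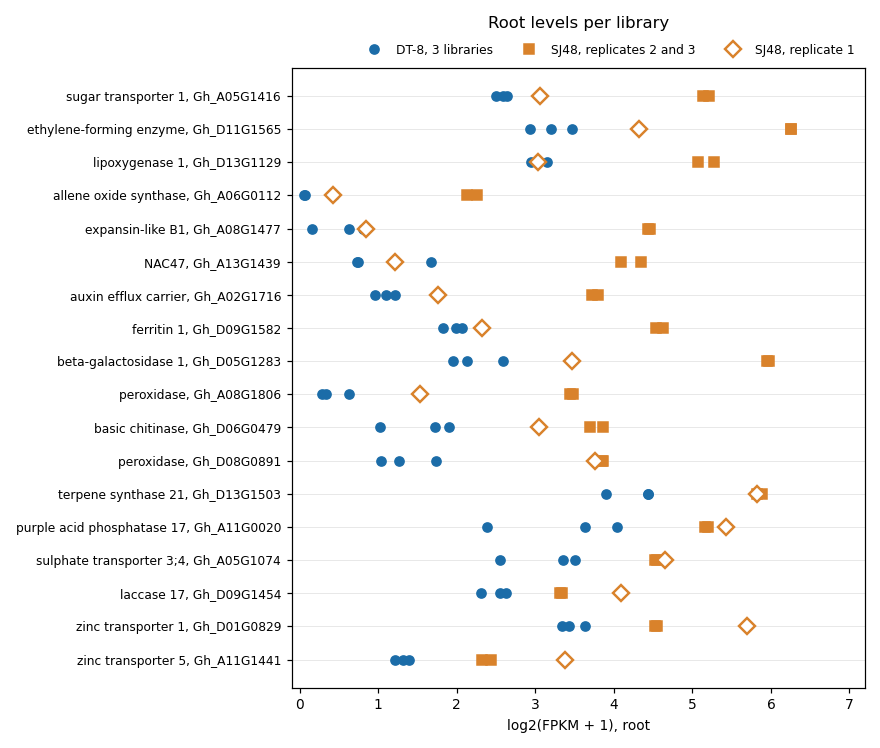
Root level on the log2(FPKM + 1) scale of 18 genes in each DT-8 library (blue circles), SJ48 replicates 2 and 3 (orange squares) and SJ48 replicate 1 (open diamonds). In the upper 10 genes SJ48 replicate 1 lies nearer to the DT-8 libraries than to the other SJ48 libraries, in the middle ones it lies nearer to SJ48 replicates 2 and 3, and for laccase 17 and zinc transporters 1 and 5 it lies above them.

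Ethylene genes split by copy. The list had 4 higher and 1 lower of 99 tested (5.05%). With 1 library left out 1 to 3 were higher and 1 to 4 lower, with 3 higher and 4 lower without SJ48 replicate 1, 2 and 2 without DT-8 replicate 1, 3 and 2 without DT-8 replicate 2, 2 and 1 without SJ48 replicate 2, and 1 and 1 without DT-8 replicate 3 or SJ48 replicate 3. In all 6 fits 1 higher and 1 lower call held. Ethylene-forming enzyme, the last enzyme of ethylene synthesis, was higher at Gh_A05G1492, with 130, 124 and 152 FPKM in DT-8 roots against 66.2, 45.1 and 42.4 FPKM in SJ48 roots (log2 difference 1.41 ± 0.163, SE, limma adjusted p = 2.44e-05). It was lower at Gh_D11G1565, with 10.1, 8.17 and 6.63 FPKM in DT-8 roots against 19.1, 75.3 and 75.6 FPKM in SJ48 roots (-2.42 ± 0.447, limma adjusted p = 0.0018). SJ48 replicate 1 was again the lowest SJ48 library at the second copy, although still above DT-8. Among the other calls, the response factor Gh_A09G2077 had 14.8, 12.5 and 15.3 FPKM in DT-8 roots against 6.99, 1.78 and 2.94 FPKM in SJ48 roots and was lost in every fit but the one without SJ48 replicate 1 (limma adjusted p = 0.0311, up to 0.129).

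A group of 3 cytokinin oxidases was higher in DT-8. Of 93 tested members of the cytokinin list 5 were higher and 1 lower (6.45%), and the 5 higher calls held in all 6 fits with 1 library left out, while the higher count was 8 without DT-8 replicate 1 and the lower one 0 without DT-8 replicate 3 or SJ48 replicate 2 or 3. Cytokinin oxidase 7, which degrades the hormone, had 11.1, 14.9 and 12.8 FPKM in DT-8 roots against 6.30, 4.07 and 4.39 FPKM in SJ48 roots at Gh_A06G0738 (log2 difference 1.25 ± 0.149, SE, limma adjusted p = 3.27e-05). It had 4.10, 6.11 and 3.86 FPKM against 0.702, 1.16 and 1.82 FPKM at Gh_A05G0290. Cytokinin oxidase/dehydrogenase 1 (Gh_A13G0113) had 10.8, 9.78 and 10.47 FPKM in DT-8 roots against 4.29, 4.19 and 3.34 FPKM in SJ48 roots. No library overlapped at these 3 loci. The root difference of Gh_A06G0738 exceeded its leaf difference by 1.54 on the log2 scale (limma adjusted p = 0.000322).

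The other 2 higher members of that list were pseudo-response regulators, which in Arabidopsis are repressors of the circadian clock and were taken in by the words of their description. Pseudo-response regulator 5 (Gh_Sca013634G01) had 16.97, 19.4 and 22.2 FPKM in DT-8 roots against 5.33, 5.89 and 4.72 FPKM in SJ48 roots (log2 difference 1.70 ± 0.101, SE, limma adjusted p = 6.18e-09). Pseudo-response regulator 7 (Gh_A09G1502) had 25.2, 22.9 and 28.0 FPKM in DT-8 roots against 9.19, 11.9 and 12.2 FPKM in SJ48 roots (1.13 ± 0.102, limma adjusted p = 1.37e-06). Both were higher in DT-8 leaves too, by 1.86 and 1.77 on the log2 scale, and the hybrid means of 14.9 and 27.7 FPKM were on the DT-8 side.

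A pair of genes with clock-linked roles in Arabidopsis, set beside these after their values were seen, were lower. Cold, circadian rhythm and RNA binding 2 (Gh_Sca005165G01), an RNA-binding protein under clock control, had 0.349, 0.308 and 0.269 FPKM in DT-8 roots against 26.7, 28.3 and 27.9 FPKM in SJ48 roots (log2 difference -4.45 ± 0.089, SE, limma adjusted p = 6.75e-15). Cycling DOF factor 2 (Gh_D11G0738), a repressor of flowering that follows the clock, had 4.23, 3.03 and 3.90 FPKM in DT-8 roots against 9.83, 10.8 and 11.8 FPKM in SJ48 roots (-1.33 ± 0.150, limma adjusted p = 1.84e-05), and entered the list of histones and cyclins by its first word. Of the 16 clock genes that the study named from these samples, 14 were tested and none was called between the roots by limma, nor did any pass the size limit at an unadjusted p under 0.05. That list was chosen by the study on these samples. Gh_Sca005165G01 was low in Z98-15 (0.220 FPKM) and 851-2 (0.314 FPKM) as well.

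Abscisic acid genes had 3 higher and 0 lower of 42 tested (7.14%). In the fits that left out 1 library 2 to 4 were higher, with 2 without DT-8 replicate 2 or SJ48 replicate 1, and 1 call held in all 6 fits, that of the first gene described here. The carotenoid-cleaving enzyme at MSTRG.56429 (Gh_D12G2009), a nine-cis-epoxycarotenoid dioxygenase of type 4, had 10.7, 9.15 and 10.2 FPKM in DT-8 roots against 0.171, 0.145 and 0.245 FPKM in SJ48 roots (log2 difference 3.21 ± 0.312, SE, limma adjusted p = 3.24e-06). None of 87 Aux/IAA and SAUR genes of early auxin response, 29 gibberellin genes or 93 UDP-glycosyltransferases was called by limma. With 1 library left out at most 1 gene was called in each direction in any of these 3 lists. At an unadjusted p under 0.05, 1 auxin gene and 1 UDP-glycosyltransferase were higher, and 1 gibberellin gene was higher and 1 lower.

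Transcription factors of the WRKY and MYB families differed at few loci. WRKY4 was higher at Gh_D11G1141, with 16.7, 14.9 and 19.6 FPKM in DT-8 roots against 6.22, 7.78 and 8.08 FPKM in SJ48 roots, and at Gh_A11G0997, with 11.7, 13.5 and 13.5 FPKM against 4.79, 6.11 and 5.62 FPKM. WRKY26 (Gh_D04G1318) was lower, with 4.38, 3.75 and 3.97 FPKM in DT-8 roots against 10.2, 10.1 and 10.6 FPKM in SJ48 roots (log2 difference -1.17 ± 0.133, SE, limma adjusted p = 2.04e-05). MYB48 (Gh_D13G2393) was higher, with 30.8, 24.9 and 30.4 FPKM in DT-8 roots against 13.02, 11.2 and 9.36 FPKM in SJ48 roots (1.29 ± 0.165, limma adjusted p = 6.81e-05). These 4 calls held in all 6 fits with 1 library left out. Called members were 4 of 157 WRKY genes (2 higher and 2 lower, 2.55%) and 3 of 190 MYB genes (all higher, 1.58%), against 2.57% of all tested genes. Without SJ48 replicate 1 there were 2 higher and 5 lower WRKY genes, and without DT-8 replicate 3 2 higher and 1 lower. The higher MYB genes numbered 6 without DT-8 replicate 2 and 2 without SJ48 replicate 3.

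The called shares of defence and stress lists lay on both sides of the 2.57% of all tested genes. The called share was 1.19% of pathogenesis-related genes, 1.97% of heat shock genes and 2.83% of 106 resistance proteins (2 higher and 1 lower). It was 5.88% of 68 glutathione S-transferases (1 higher and 3 lower, of which 1 lower call held in all 6 fits with 1 library left out). Differences between these shares were not tested. Basic chitinase (Gh_D06G0479), which cuts fungal walls, was the only call of 84 pathogenesis-related genes, with 2.75, 2.32 and 1.02 FPKM in DT-8 roots against 7.25, 13.5 and 11.9 FPKM in SJ48 roots. Without SJ48 replicate 1, 5 members of that list were lower, and 1 to 2 without any other library. Heat shock protein 101 (Gh_A07G0622), a disaggregase, had 9.43, 8.96 and 9.60 FPKM in DT-8 roots against 3.98, 3.81 and 3.83 FPKM in SJ48 roots, whereas 3 of 152 heat shock genes were called in all. Glutathione S-transferase tau 7 (Gh_A13G2263), a detoxifying enzyme and the only higher member of its list, had 14.04, 17.9 and 20.4 FPKM in DT-8 roots against 1.69, 0.950 and 1.34 FPKM in SJ48 roots, but lost its call (limma adjusted p = 0.0341) when any 1 of the 6 libraries was left out (up to 0.102). The immune receptor at Gh_D10G2521;Gh_D10G2522, of the TIR-NBS-LRR class, had 3.43, 3.65 and 3.78 FPKM in DT-8 roots against 0.849, 0.790 and 0.362 FPKM in SJ48 roots.

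Few genes of protein synthesis were called, and the called share of cell division genes was close to the 2.57% of all tested genes. Of 755 tested ribosomal protein genes 1 was higher and 0 were lower (0.132%), with a list median of -0.11. The FPKM of all 950 genes of that list nevertheless summed to less in DT-8. It was 17650 to 19930 in the DT-8 libraries and 20450 to 22410 in the SJ48 libraries, with no overlap. The list of histones and cyclins, genes of dividing cells, had 2 higher and 5 lower of 240 tested (2.92%). Of these, 2 and 4 held in all 6 fits with 1 library left out. The lower ones included cycling DOF factor 2, which the list took in by its first word. Histone H2A 12 (Gh_A08G2543;Gh_A08G2544) had 33.8, 37.9 and 25.4 FPKM in DT-8 roots against 79.0, 73.7 and 70.3 FPKM in SJ48 roots (log2 difference -1.19 ± 0.201, SE, limma adjusted p = 0.000879), and the histone Gh_D10G0981 had 5.74, 5.86 and 4.37 FPKM against 20.6, 16.4 and 14.7 FPKM. The hybrid was above both parents at these loci, with means of 105 and 22.2 FPKM.

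Some loci were listed at 0 in all 3 libraries of one inbred. With an FPKM of at least 5 in every library of the other, 9 loci were listed at 0 in DT-8 and 24 in SJ48. An FPKM of 0 in such a table can also be a failed estimate, so no fold is given. Of the 9 loci at 0 in DT-8 roots, 5 were also at 0 in all DT-8 leaves and 1 was at 0 in the roots of both Z98-15 and 851-2. Only 1 of those 5 had a mean of at least 1 FPKM in SJ48 leaves, so the other leaf zeros hardly separate the inbreds. The hybrid had a mean of at least 1 FPKM at all 9. At some of them, such as Gh_A12G0589 and MSTRG.65117, it was nevertheless at 0 in 2 of its libraries. Of the 24 loci at 0 in SJ48 roots, 20 were at 0 in SJ48 leaves, and 16 of these had a mean of at least 1 FPKM in DT-8 leaves. In both other inbreds 19 were at 0, and the hybrid reached a mean of 1 FPKM at 21. Here too the hybrid was at 0 in 2 libraries at some loci, such as Gh_D06G0559.

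Most of these loci carried no description. Gh_D10G2262 (locus MSTRG.51303) had 27.4, 32.4 and 34.8 FPKM in DT-8 roots and was listed at 0 in the 3 SJ48 roots, and Gh_A05G1263 (locus MSTRG.8381) had 15.0, 13.5 and 15.0 FPKM in DT-8 roots and a mean of 13.2 FPKM in DT-8 leaves, while SJ48 was listed at 0 in both organs. Gh_Sca113166G01, described as an ENTH/VHS/GAT family protein of vesicle traffic, had 16.1, 17.8 and 18.9 FPKM in DT-8 roots and 0 in SJ48 roots, but 0 in the hybrid and the other inbreds too. In the opposite direction, Gh_A12G0589 was listed at 0 in DT-8 roots and had 49.2, 50.5 and 47.3 FPKM in SJ48 roots. It was not called (limma adjusted p = 0.0519), and its log2 difference had a standard error of 1.86.

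The called share was 2.01% of the 30280 tested genes with a description and 3.46% of the 20516 tested loci without a gene name, and the difference between these shares was not tested. On the named chromosomes the share ran between 0.969% on A04 and 3.23% on A01, and it was 2.01% for genes of the A subgenome and 2.08% for genes of the D subgenome. In windows of 50 consecutive gene numbers, only 1 of 1333 windows with 10 or more tested genes held 5 called genes, and 781 held none.

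In leaves of the same lines, 54835 genes were tested and 1229 were called, 631 higher and 598 lower in DT-8 (2.24%). In the same direction, 347 genes were called in both organs, which is 22.8% of the root calls and 28.2% of the leaf calls, and 1 gene was called in opposite directions. Of the genes called in root, 481 higher and 463 lower ones were expressed enough to be tested in leaf, and 194 (40.3%) and 153 (33.0%) of these were called the same way there. The difference itself was tested as root minus leaf within a plant. The labels do not state which libraries share a plant, so root and leaf with the same replicate number in a genotype were assumed to. In this test 1197 of 68185 genes passed (1.76%), with a more positive difference in root at 637 (0.934%) and a more negative one at 560 (0.821%). Among them were 278 higher root calls with a larger positive difference in root and 248 lower root calls with a larger negative one. The 68185 genes include some that were too low in leaf to be tested there, such as Gh_A05G0189 (0.153 FPKM in DT-8 leaves and 0.429 FPKM in SJ48 leaves). The log2(FPKM + 1) scale shrinks differences between such low values. A gene hardly expressed in leaf can therefore pass this test, and a different ratio in root and leaf is not shown for it. The libraries of the 2 organs share plants, so these counts are not independent of each other.

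**Figure D5:**
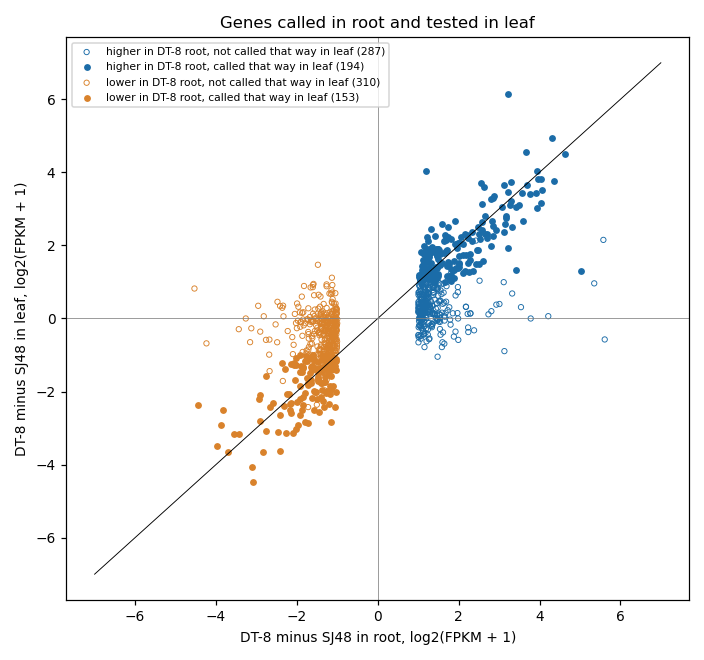
DT-8 minus SJ48 in root (horizontal) and in leaf (vertical), on the log2(FPKM + 1) scale, for genes called in root and tested in leaf. Filled points are the 194 higher and 153 lower genes called in the same direction in leaf, open points the 287 and 310 others, many of which lie near 0 in leaf.

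The hybrid of the pair lay between its parents at 1077 of the 1523 called genes (70.7%), beyond DT-8 at 187 and beyond SJ48 at 259. The median position was 0.44, where 1 is the DT-8 level and 0 the SJ48 level. For genes higher in DT-8, the other inbreds Z98-15 and 851-2 were both nearer to DT-8 at 18.7% and both nearer to SJ48 at 51.3%. For genes lower in DT-8, both were nearer to DT-8 at 37.7% and to SJ48 at 37.3%. Positions use the same SJ48 and DT-8 libraries that made the calls and are given as a description.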

How the data were processed

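The authors made paired-end mRNA libraries, mapped the reads to the TM-1 cotton genome with HISAT and estimated expression with StringTie. The deposited table holds FPKM, normalized by the authors for transcript length and library size, for 100881 loci, of which 35503 have no gene name and 48884 have a description. The sources used here do not state tool versions. It holds no read counts or coordinates, so the depth behind each value is unknown and no counting interval is given, and how fragments shared by near-identical copies were assigned was not stated.

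Values were taken as log2(FPKM + 1), without further scaling. limma 3.58.1 in R 4.3.3 fitted 1 mean per genotype to the 21 root libraries with a mean-variance trend, so that the spread is shared over all 7 genotypes, and DT-8 minus SJ48 was tested with Benjamini-Hochberg adjustment. Leaves were fitted in the same way, and root minus leaf was fitted on all 42 libraries with the plant, assumed from the replicate number, as a block. Lists were made from words in the deposited descriptions or, for the clock genes, from identifiers. The words also took in a few genes of another role, which are named. Genes were named by rule: the 12 largest described changes in each direction without overlap and with a mean FPKM of at least 5 in the higher inbred, up to 2 per list and direction, 3 without description, and up to 6 listed at 0 in one inbred. Further called members of lists, and the genes described as chosen after their values were seen, were added. The members, lists and tests were chosen with earlier results of these data known. Alternatives were a pseudocount of 0.1, no filter, an FPKM minimum of 5, quantile and median-ratio scaling, the replicate number as a block, the 6 libraries alone, an unadjusted p, no mean-variance trend, and each library left out. The fit was tested on simulated data with planted changes. Tables and figures were made in Python 3.11.15 with pandas 2.3.3, matplotlib 3.10.9 and numpy 2.4.6.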

Additional observations from a re-analysis of the deposited data

Results flagged for a closer look

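The DT-8 minus SJ48 difference itself differed between root and leaf at 1197 genes, by the limma test of root minus leaf with the plant as a block. Positive values below mean that DT-8 stood higher, relative to SJ48, in root than in leaf, on the log2(FPKM + 1) scale. Genes hardly expressed in leaf are included, and for these a different ratio in root and leaf is not shown.

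Mineral, hormone and wall genes with a more positive difference in root were zinc transporter 10 at Gh_D10G0438 (2.38), cytokinin oxidase 7 at Gh_A06G0738 (1.54), expansin-like A2 at Gh_A01G1439 (1.38), the UPF0497 protein Gh_A09G0009 (1.29) and heat shock protein 101 at Gh_A07G0622 (1.2). Expansin-like A2 was lower in DT-8 in both organs, at -1.05 in root and -2.43 in leaf, and its root call was lost without DT-8 replicate 3 or SJ48 replicate 1. Among loci near 0 in SJ48 root, the value was 6.19 for the undescribed Gh_A13G0693, 4.15 for the ENTH/VHS/GAT protein Gh_Sca113166G01 and 3.70 for Gh_D10G2262 (locus MSTRG.51303). Gh_A13G0693 had 59.4, 64.2 and 71.7 FPKM in DT-8 roots against 1.45, 0 and 0 FPKM in SJ48 roots, and its root call was lost in all fits with 1 library left out except that without SJ48 replicate 1.

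A more negative difference in root was found for ethylene-forming enzyme at Gh_D11G1565 (-2.76), beta-galactosidase 1 at Gh_D05G1283 (-2.54), sugar transporter 1 at Gh_A05G1416 (-1.80) and Gh_D05G1581 (-1.64), and the DNAJ chaperone Gh_D01G0185 (-1.37). In these 5 genes SJ48 replicate 1 was the lowest SJ48 root library. SPX domain gene 3 at Gh_A11G0714 (-1.73), WRKY26 at Gh_D04G1318 (-1.04) and O-methyltransferase 1 at Gh_Sca010598G01 (-1.02) were also called lower in root and not in leaf. The clock-linked RNA-binding gene Gh_Sca005165G01 (-2.09) was lower in both organs. The 31-kDa RNA-binding gene Gh_Sca098319G01 (-3.26) had 0, 0.283 and 0.109 FPKM in DT-8 roots against 18.1, 6.88 and 7.36 FPKM in SJ48 roots and was listed at 0 in the leaves of both, and the undescribed Gh_D10G1540 (locus MSTRG.50628) gave -3.55.

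For 2 genes higher in DT-8 in both organs, the leaf difference was the larger: the nine-cis-epoxycarotenoid dioxygenase of type 4 at MSTRG.56429 (Gh_D12G2009, -2.94), and O-methyltransferase 1 at Gh_D12G2369 (-1.15).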

How the results depend on the processing

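The number of genes called in root moved by more than 1.5 times in 2 settings. A pseudocount of 0.1 gave 2773 calls (1433 higher and 1340 lower), and an FPKM minimum of 5 gave 847 (418 higher and 429 lower) of 23179 tested. In leaf a pseudocount of 0.1 gave 2145 calls (1116 higher, 1029 lower). The loci listed at 0 numbered 73 in DT-8 and 95 in SJ48 with a minimum of 1 in the other inbred, and 4 in DT-8 and 7 in SJ48 with a minimum of 10. Each library left out in turn gave 1285 to 1822 root calls (749 to 839 higher, 536 to 997 lower), and the lower count was 997 without SJ48 replicate 1 and 536 without DT-8 replicate 3. Quantile and median-ratio scaling placed 46.5% and 42.6% of the calls on the higher side, against 51.6%, and gave median differences over all genes of 0.00667 and -0.0137.

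Replicate numbers do not pair the inbreds: residuals of same-numbered roots correlated at 0.0177, -0.0170 and 0.0155. With the replicate number as a block 1522 genes were called in root (791 higher and 731 lower).

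Of 98 called genes named by rule, no direction turned in any alternative. They were chosen for a log2 difference beyond 1 in these same libraries, so a turned direction was unlikely from the start. The 6 libraries alone ended 26 calls, no filter 14, a pseudocount of 0.1 ended 9, and leaving out 1 library 14 to 27. With 3 libraries per inbred the spread rests on few samples, and it is assumed that DT-8 and SJ48 vary like the other genotypes.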

Other observations

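Further groups held single calls of several kinds. Of 211 lipid transfer and extensin-like genes 3 were higher and 4 lower in DT-8 (3.32%, against 2.57% of all tested genes). With 1 library left out 1 to 3 were higher and 4 to 6 lower (1 higher without DT-8 replicate 2 or 3 or SJ48 replicate 2 or 3). The glycolipid transfer protein Gh_D08G1244, which moves membrane lipids, had 2.86, 3.04 and 3.05 FPKM in DT-8 roots against 0.106, 0.190 and 0.129 FPKM in SJ48 roots (log2 difference 1.802 ± 0.121, SE, limma adjusted p = 2.77e-08). CYP714A (Gh_D04G0101), of a P450 family that modifies gibberellins and was taken in by the first digits of its family number, had 0.192, 0.0660 and 0.102 FPKM in DT-8 roots against 3.55, 3.19 and 2.94 FPKM in SJ48 roots (-1.92 ± 0.172, limma adjusted p = 1.22e-06). Haemoglobin 2 (Gh_A01G2084), an oxygen-binding protein, had 15.9, 18.0 and 16.0 FPKM in DT-8 roots against 10.9, 5.63 and 6.87 FPKM in SJ48 roots, and failed the size limit without DT-8 replicate 2 or SJ48 replicate 2 or 3. Of 185 receptor-like kinases 2 were higher and 1 lower (1.62%, with 3 lower without SJ48 replicate 1 or 2), and of 32 xyloglucan endotransglucosylase/hydrolases 1 was higher (3.12%).

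Undescribed loci had some of the largest differences. Gh_A05G2440 had 38.0, 41.6 and 58.5 FPKM in DT-8 roots against 0.0875, 0.163 and 0.143 FPKM in SJ48 roots. MSTRG.79720 had 0, 0 and 7.89 FPKM in DT-8 roots against 33.2, 46.6 and 46.0 FPKM in SJ48 roots, with DT-8 replicate 3 apart from the others. Values of 0 in some replicates beside at least 5 FPKM in another occurred at 583 loci in DT-8 roots and 444 loci in SJ48 roots.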
